A study of Mus musculus with 6 samples.

Results

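The mitosis, spindle and cytokinesis genes described here are 49 genes taken by name from a list and matched on gene symbol in the count table, out of 54532 genes in all. All 49 were found. Poly(A)-selected RNA was sequenced from whole livers of mice aged 5 weeks in 2 groups: 3 livers labelled Fam210aHKO, with a hepatocyte-specific knockout of Fam210a, and 3 livers labelled Ctrl. FAM210A is a protein of mitochondria. The sources used here do not give the promoter that removed Fam210a in hepatocytes, the alleles of the Ctrl mice, or the sex of either group. The genotype label of Fam210aHKO replicates 2 and 3 names other gene numbers (Fam211a, Fam212a), and their titles name Fam210aHKO. Whether each sample came from its own animal is not stated in the labels, and the p-values therefore measure how far these samples vary, which may be technical.

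Fam210a itself, on chromosome 18 (68260187 to 68300333, mm10), had 31.7, 28.6 and 44.2 counts per 1e6 scaled counts (CPM) in Fam210aHKO livers, against 119, 136 and 162 CPM in Ctrl livers. The groups did not overlap, and the log2 fold change was -1.99 ± 0.19 (SE, n = 3 each). Library totals were 12.5 to 19.7 M counts (1 M is 1e6) in Fam210aHKO and 13.0 to 16.9 M in Ctrl, so that a count of 3 in 1 library was worth 0.132 to 0.261 CPM. Of 13706 genes with enough counts to test, 1922 were higher in Fam210aHKO (14.0%) and 1852 lower (13.5%), with an adjusted p under 0.05 as the threshold. Scaling by library totals in place of TMM factors raised the log2 fold change of the median gene by 0.45 and gave 5846 genes higher and 868 lower. Where that choice ends a call or turns a direction it is said beside the value.

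A dividing cell enters mitosis when CDK1 binds its A- and B-type cyclins and is freed of inhibitory phosphates by CDC25 phosphatases. Chromosomes then condense, kinetochores form at their centromeres, and motor proteins build the spindle. The spindle checkpoint holds the anaphase-promoting complex until every kinetochore is attached, after which securin and cyclin B are destroyed, separase parts the sister chromatids and the central spindle directs the cleavage of the cell. Most of these genes are transcribed late in the cell cycle, and in mammalian cells many are repressed out of cycle by the DREAM complex and switched on by B-MYB, FOXM1 and the MuvB core. MuvB binds the CHR element of their promoters (cell cycle genes homology region), and NF-Y binds CCAAT boxes beside it. The adult liver divides little, and juvenile hepatocytes are still leaving the cell cycle as many become polyploid.

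Promoter sequence was available from RefSeq for 40 of the 49 genes (GRCm38.p6, the assembly also called mm10), as 250 bases before to 50 bases after the annotated start. The promoters below are those of the 6 called genes of highest mean CPM in that table, shown because they carry the elements that the group shares. Those of Pttg1 and Cks2 follow, chosen after their values were seen because neither passed the test. Each reads 5′ to 3′ on the strand of its gene, and capitals mark matches on either strand. The letters searched were TTTGAA or else TTTAAA for the CHR element and CCAAT for the CCAAT box. For the E2F site they were TTCCCGC and also TTCGCGC, as well as TTGCCGC and likewise TTGGCGC. The windows are chr7:135716330-135716629 (minus strand) for Mki67, chr2:69206164-69206463 (minus) for Spc25, chr4:118437294-118437593 (minus) for Cdc20 and chr13:100786437-100786736 (minus) for Ccnb1. They are chr3:27153829-27154128 (minus) for Ect2, chr11:99024140-99024439 (minus) for Top2a, chr11:43425932-43426231 (minus) for Pttg1 and chr13:51644982-51645281 (plus) for Cks2.
Mki67: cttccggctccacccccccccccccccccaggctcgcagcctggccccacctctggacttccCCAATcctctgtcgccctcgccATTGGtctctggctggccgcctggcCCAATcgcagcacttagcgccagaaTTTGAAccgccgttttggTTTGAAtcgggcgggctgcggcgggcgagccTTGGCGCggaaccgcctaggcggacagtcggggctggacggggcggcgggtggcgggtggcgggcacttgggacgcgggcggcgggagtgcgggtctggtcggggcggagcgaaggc
Spc25: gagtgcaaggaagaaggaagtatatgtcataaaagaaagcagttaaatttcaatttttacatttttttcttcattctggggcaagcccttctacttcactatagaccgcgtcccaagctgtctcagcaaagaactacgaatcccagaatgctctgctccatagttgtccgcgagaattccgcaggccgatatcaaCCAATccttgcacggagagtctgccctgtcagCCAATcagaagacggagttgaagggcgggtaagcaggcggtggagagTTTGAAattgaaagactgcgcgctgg
Cdc20: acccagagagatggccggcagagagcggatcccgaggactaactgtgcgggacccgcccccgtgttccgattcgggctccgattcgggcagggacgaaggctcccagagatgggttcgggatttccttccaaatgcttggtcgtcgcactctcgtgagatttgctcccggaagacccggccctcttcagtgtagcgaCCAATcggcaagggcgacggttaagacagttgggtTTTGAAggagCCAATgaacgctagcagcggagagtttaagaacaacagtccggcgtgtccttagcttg
Ccnb1: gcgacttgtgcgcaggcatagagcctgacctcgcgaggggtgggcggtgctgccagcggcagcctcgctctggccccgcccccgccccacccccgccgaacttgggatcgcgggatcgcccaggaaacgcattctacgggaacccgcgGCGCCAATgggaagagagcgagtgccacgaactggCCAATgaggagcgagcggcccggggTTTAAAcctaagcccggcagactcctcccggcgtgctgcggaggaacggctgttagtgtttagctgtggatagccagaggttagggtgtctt
Ect2: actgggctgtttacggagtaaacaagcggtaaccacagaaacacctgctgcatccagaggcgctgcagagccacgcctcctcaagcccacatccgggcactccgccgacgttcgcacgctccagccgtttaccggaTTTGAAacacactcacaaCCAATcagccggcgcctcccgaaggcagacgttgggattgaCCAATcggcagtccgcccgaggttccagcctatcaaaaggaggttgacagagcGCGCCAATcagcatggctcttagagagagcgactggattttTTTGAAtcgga
Top2a: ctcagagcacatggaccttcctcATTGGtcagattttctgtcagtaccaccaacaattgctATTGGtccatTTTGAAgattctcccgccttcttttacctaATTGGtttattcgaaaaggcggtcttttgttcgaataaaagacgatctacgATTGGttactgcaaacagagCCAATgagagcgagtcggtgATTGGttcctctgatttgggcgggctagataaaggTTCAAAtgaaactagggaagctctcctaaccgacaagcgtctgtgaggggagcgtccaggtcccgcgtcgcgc
Pttg1: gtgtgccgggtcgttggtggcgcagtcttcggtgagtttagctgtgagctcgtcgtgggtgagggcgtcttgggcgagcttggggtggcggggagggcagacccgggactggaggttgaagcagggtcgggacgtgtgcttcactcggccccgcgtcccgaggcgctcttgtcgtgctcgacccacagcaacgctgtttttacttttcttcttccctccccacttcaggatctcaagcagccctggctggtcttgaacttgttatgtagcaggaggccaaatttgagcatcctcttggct
Cks2: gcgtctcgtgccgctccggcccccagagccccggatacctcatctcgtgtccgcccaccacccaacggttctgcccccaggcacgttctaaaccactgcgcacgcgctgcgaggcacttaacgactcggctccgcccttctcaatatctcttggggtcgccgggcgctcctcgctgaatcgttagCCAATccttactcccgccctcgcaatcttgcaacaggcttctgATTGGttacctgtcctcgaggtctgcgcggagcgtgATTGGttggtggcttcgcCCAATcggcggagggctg

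Counting the start as +1 and giving the first base of each match on the strand shown, the CHR element lay at -18 in Cdc20, at -42 in Ccnb1 and at +25 in Spc25. Top2a had 1 at -23 and another at -179, and Ect2 had 1 at +40 and another at -114. RefSeq also gives another start for Ect2 (window chr3:27153805-27154104), from which the same matches lie at +16 and -138. Mki67 had 2, at -116 and -98. Top2a held 6 CCAAT boxes, Mki67 and Ect2 had 3 each, and Spc25, Cdc20 and Ccnb1 had 2 each. In Ccnb1 and Ect2 the E2F match overlapped a CCAAT box, and the only other E2F match in these 8 windows was that of Mki67 at -67. Cks2 had 4 CCAAT boxes and no CHR match. No match of the 3 motifs was found in the Pttg1 window, which says only that these letters are not in it. That window ends at 43426231, inside the Pttg1 gene as counted, whose 5′ end is at 43426251. Sequence before that end was therefore not searched.

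Over all 40 genes with a promoter, 32 (80.0%) held a CHR element, against 23.3% of the 10188 tested genes in the same table and 27.6% of all 32851 promoters in it. A gene counts where any of its listed promoters holds the motif, while shares of all promoters count each promoter singly. Counted per gene, 30.6% of all 27025 genes held a CHR element. Within 50 bases of the start, 28 of the 40 (70.0%) held one, against 6.61% of tested genes and 8.28% of all promoters. CCAAT boxes stood in 30 (75.0%), against 43.0% of tested genes and 37.4% of all promoters, and 21 (52.5%) held 2 or more, against 16.6% of tested genes. Both elements occurred together in 27 of the 40 (67.5%), against 9.43% of tested genes. E2F matches stood in 5 genes (12.5%), a share between that of tested genes (18.6%) and that of all promoters (9.57%). A CHR match overlapped a CCAAT box in Cdca8, and 2 CCAAT boxes overlapped in Ube2c. Mad2l1, Mybl2, Nuf2, Nusap1 and Pttg1 had none of the 3 motifs, which was so for 36.5% of tested genes. The median GC content of the windows was 60.2%, against 60.3% for tested genes. The 28 genes with a CHR element near the start had log2 fold changes of 1.29 to 5.78 (median 3.74), and the 11 tested genes with a promoter but without one had -0.42 to 6.37 (median 2.89). These ranges overlap over most of their length. The 6.37 was that of Bub1, which had 1 count over the 3 Ctrl libraries. The next highest without a CHR element near the start was Cdkn3 at 4.89, with 4 Ctrl counts. A match is a description of the sequence and does not show that a factor binds there. The windows of Pttg1, Kif2c, Cdca8 and Kif4 lay wholly inside the genes as counted, so the sequence before those 5′ ends was not searched.

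**Figure D1:**
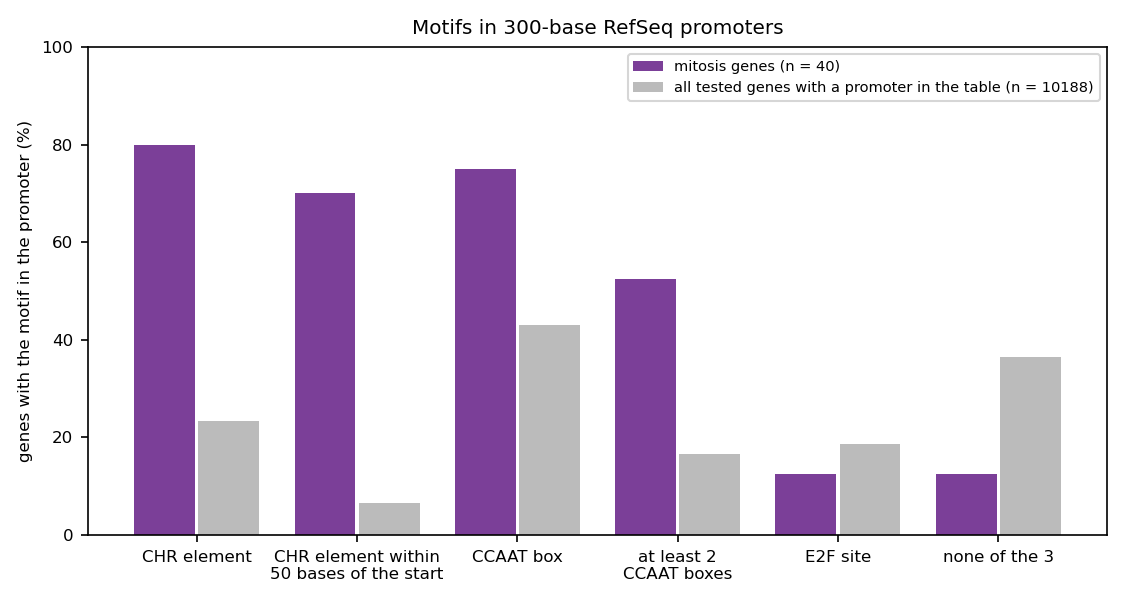
Share of genes (y axis, %) whose 300-base RefSeq promoter holds each motif (x axis), for 40 mitosis genes (left bar of each pair) and 10188 tested genes (right bar). CHR elements near the start stand in 70.0% of the mitosis genes and 6.61% of tested genes, while E2F sites stand in 12.5% and 18.6%.

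Of the 49 genes, 45 were higher in Fam210aHKO livers, none was lower, and 3 (Cks2, Spc24 and Pttg1) did not pass the test, beside 14.0% of all tested genes called higher and 13.5% called lower. Mybl2 had too few counts to be tested. All 45 changed at least 2-fold, with adjusted p-values of 1.42e-06 to 0.0442. Summed over the 49 genes, Fam210aHKO livers had 360, 377 and 541 CPM, against 98.4, 111 and 88.5 CPM in Ctrl livers. In 46 of the 49, every Fam210aHKO library lay above every Ctrl library, which held for 22.0% of tested genes. Among the 48 tested genes the median log2 fold change was 3.53, against 0.02 over all tested genes, whose 5th and 95th percentiles were -1.28 and 1.41. In whole liver, more cells of a type and more RNA per cell cannot be told apart, nor can fewer cells and less RNA per cell.

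Many of these genes were close to silent in Ctrl livers, which bears on how the counts above can be read. The mean Fam210aHKO level was under 1 CPM for Mybl2 alone, and the mean Ctrl level was under 1 CPM for 34 genes. Of the 48 tested genes, 24 reached the minimum of the filter in no Ctrl library and 14 in 1 or 2, so they entered the test through the Fam210aHKO libraries, and those 24 had to differ. The 10 that reached it in all 3 Ctrl libraries were Cks2, Aurka, Cenpa, Spc24, Spc25, Mad2l1, Pttg1, Incenp, Anln and Mki67. Of those, 7 were higher, beside 1515 of 12363 tested genes (12.3%) that reached it in all 3 Ctrl libraries. The lowest count of any of the 49 genes in a Fam210aHKO library was 6, whereas 7 genes had 0 counts in at least 1 Ctrl library and 31 had under 30 counts over the 3 Ctrl libraries. The median coefficient of variation between libraries was 28.2% in Fam210aHKO and 45.9% in Ctrl, where the counting error of such few counts is part of it.

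**Figure D2:**
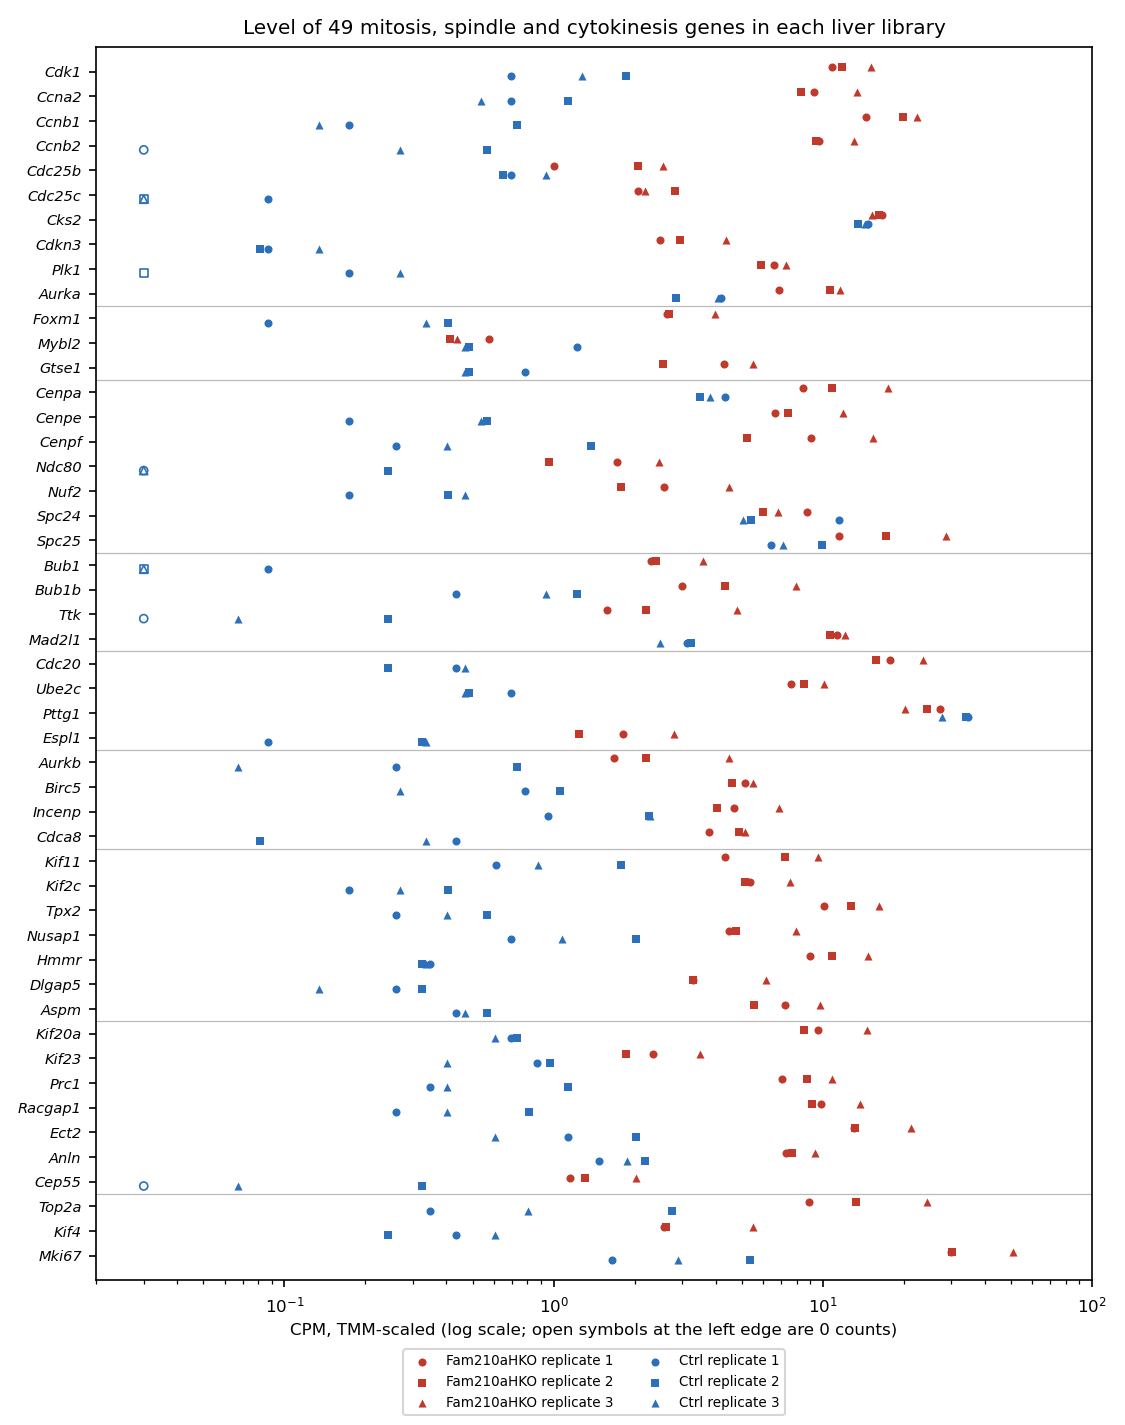
TMM-scaled CPM (x axis, log scale) of each of the 49 genes (rows, separated by role) in each library, with 1 symbol per library and 0 counts drawn as open symbols at the left edge. Fam210aHKO libraries lie right of all Ctrl libraries in 46 rows, and the rows of Mybl2, Spc24 and Pttg1 differ from the rest.

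The kinases, cyclins and phosphatases of mitotic entry rose in 9 of 10 cases, with a median log2 fold change of 4.31. Cdk1, the mitotic kinase, had 10.8, 11.8 and 15.1 CPM in Fam210aHKO livers, against 0.696, 1.87 and 1.28 CPM in Ctrl livers (log2 fold change 3.28 ± 0.31, SE, adjusted p = 3.81e-05). Its S and G2 phase partner Ccna2 had 9.28, 8.32 and 13.5 CPM in Fam210aHKO and 0.696, 1.14 and 0.538 CPM in Ctrl. The lowest Fam210aHKO value of Ccna2 was thus several times the highest Ctrl value. Ccnb1, the cyclin that drives entry (chromosome 13, 100778650 to 100786570), had 14.5, 20.0 and 22.5 CPM in Fam210aHKO livers, against 0.174, 0.731 and 0.134 CPM in Ctrl livers. Its log2 fold change of 5.78 ± 0.42 (SE, adjusted p = 8.56e-06) was among the largest. Ccnb1 shares sequence with processed pseudogenes, of which Ccnb1-ps had a mean of 0.490 CPM in Fam210aHKO and 0 CPM in Ctrl, so some reads may be split between them. Ccnb2 was similar, at 9.71, 9.43 and 13.1 CPM in Fam210aHKO and 0, 0.568 and 0.269 CPM in Ctrl.

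Plk1, the polo-like kinase that acts from entry to cytokinesis, had 6.60, 5.92 and 7.33 CPM in Fam210aHKO livers, against 0.174, 0 and 0.269 CPM in Ctrl livers (log2 fold change 5.36 ± 0.46, SE). Aurka, the centrosomal Aurora kinase, had 6.89, 10.7 and 11.6 CPM in Fam210aHKO and 4.17, 2.84 and 4.10 CPM in Ctrl, so that it was already present there (log2 fold change 1.39 ± 0.26, SE, adjusted p = 0.00246). The groups did not overlap for either kinase. Cdc25c, a phosphatase that activates CDK1, had 134 counts over the 3 Fam210aHKO libraries and 1 count over the 3 Ctrl libraries, a ratio of 89.0 after scaling with a 95% exact interval of 15.7 to 3543 for counting error only. Cdc25b, its relative, had 1.0, 2.06 and 2.54 CPM in Fam210aHKO and 0.696, 0.649 and 0.941 CPM in Ctrl. That was the smallest change called in the group (log2 fold change 1.27 ± 0.42, SE, adjusted p = 0.0442), and the call was lost with DESeq2 (adjusted p = 0.0557), limma-voom (0.10) and both FPKM scales (0.068 and 0.0661). It was also lost without Fam210aHKO replicate 2 (0.104) or 3 (0.153) and without Ctrl replicate 1 (0.121), 2 (0.118) or 3 (0.0806). Cdkn3, a phosphatase of CDKs, rose to a mean of 3.28 CPM in Fam210aHKO, against 0.101 CPM in Ctrl.

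Foxm1, the transcription factor of late cell cycle genes, had 2.63, 2.68 and 3.99 CPM in Fam210aHKO livers, against 0.087, 0.406 and 0.336 CPM in Ctrl livers (log2 fold change 3.43 ± 0.44, SE, adjusted p = 0.000244). Mybl2, which encodes B-MYB, had too few counts for the test. It had 0.574, 0.413 and 0.439 CPM in Fam210aHKO and 1.22, 0.487 and 0.470 CPM in Ctrl, and the values overlap. Gtse1, a microtubule-binding protein of G2 that restrains p53, rose with Foxm1 (4.31, 2.55 and 5.53 CPM in Fam210aHKO, 0.783, 0.487 and 0.470 CPM in Ctrl).

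At the kinetochore and centromere 6 of 7 genes rose. Cenpe, the kinesin that carries chromosomes to the spindle equator, had 6.65, 7.43 and 11.9 CPM in Fam210aHKO livers, against 0.174, 0.568 and 0.538 CPM in Ctrl livers (log2 fold change 4.29 ± 0.39, SE). Cenpa, the histone H3 variant that marks centromeres, had 8.42, 10.9 and 17.5 CPM in Fam210aHKO and 4.35, 3.49 and 3.83 CPM in Ctrl (log2 fold change 1.66 ± 0.28, SE, adjusted p = 0.0013). Cenpf, a large protein of the outer kinetochore, varied more, at 9.04, 5.23 and 15.4 CPM in Fam210aHKO and 0.261, 1.38 and 0.403 CPM in Ctrl.

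Of the 4 subunits of the NDC80 complex, which couples kinetochores to microtubules, 3 rose and Spc24 did not pass. Ndc80 had 106 counts over the Fam210aHKO libraries and 3 over the Ctrl libraries, a scaled ratio of 23.5 (95% exact interval 7.82 to 116). Nuf2, its partner at the microtubule end, had 2.58, 1.79 and 4.47 CPM in Fam210aHKO and 0.174, 0.406 and 0.470 CPM in Ctrl (log2 fold change 3.03 ± 0.48, SE). Both were thus near silent in Ctrl livers. Spc25, at the chromosome end, had 11.5, 17.1 and 28.9 CPM in Fam210aHKO livers, against 6.43, 9.99 and 7.13 CPM in Ctrl livers (log2 fold change 1.29 ± 0.31, SE, adjusted p = 0.0099). Its partner Spc24 (chromosome 9, 21755442 to 21760303) had 8.75, 5.99 and 6.84 CPM in Fam210aHKO and 11.5, 5.44 and 5.04 CPM in Ctrl. The Spc24 values overlap, the highest being that of Ctrl replicate 1, and the log2 fold change was -0.02 ± 0.31 (SE, adjusted p = 0.978). Without that library it was 0.45 and with library totals 0.43, neither past the threshold.

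All 4 spindle checkpoint genes rose. Mad2l1, whose product forms the inhibitor of the anaphase-promoting complex, was the steadiest, with 11.3, 10.7 and 12.1 CPM in Fam210aHKO livers, against 3.13, 3.25 and 2.49 CPM in Ctrl livers (log2 fold change 1.95 ± 0.20, SE, adjusted p = 7.12e-05). Bub1b, which encodes the BUBR1 component of the same inhibitor, had 3.01, 4.33 and 7.98 CPM in Fam210aHKO and 0.435, 1.22 and 0.941 CPM in Ctrl. Ttk, the kinase MPS1 that starts checkpoint signalling, had 1.58, 2.20 and 4.83 CPM in Fam210aHKO and 0, 0.244 and 0.0672 CPM in Ctrl. For all 3 the groups stood apart. Bub1, the kinase that recruits checkpoint proteins to the kinetochore, had 165 counts over the Fam210aHKO libraries and 1 over the Ctrl libraries, a scaled ratio of 110 (95% exact interval 19.4 to 4356).

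Among the partners of the anaphase-promoting complex and separase, 3 of 4 rose and the securin gene did not pass. Cdc20, the activator that the checkpoint restrains (chromosome 4, 118432901 to 118437352), had 17.8, 15.8 and 23.6 CPM in Fam210aHKO livers, against 0.435, 0.244 and 0.470 CPM in Ctrl livers. It had the smallest adjusted p of the 49 genes (log2 fold change 5.60 ± 0.30, SE, adjusted p = 1.42e-06). Ube2c, the ubiquitin-conjugating enzyme of the complex, had 7.61, 8.53 and 10.1 CPM in Fam210aHKO and 0.696, 0.487 and 0.470 CPM in Ctrl (log2 fold change 3.99 ± 0.28, SE). Espl1, which encodes separase, had 1.82, 1.24 and 2.81 CPM in Fam210aHKO and 0.087, 0.325 and 0.336 CPM in Ctrl (log2 fold change 2.91 ± 0.51, SE).

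Pttg1, which encodes securin, the inhibitor of separase (chromosome 11, 43420250 to 43426251), had 27.3, 24.4 and 20.2 CPM in Fam210aHKO livers, against 34.6, 34.0 and 27.8 CPM in Ctrl livers. It was the only one of the 49 genes for which every Fam210aHKO library lay below every Ctrl library. The log2 fold change was -0.42 ± 0.17 (SE), and the adjusted p of 0.0831 did not pass. It did pass with the replicate number as a block (log2 fold change -0.43, adjusted p = 0.022) and on both FPKM scales (0.0453 and 0.0447), while with library totals the value was 0.035. Cks2, a small subunit that binds CDK1, had 16.6, 16.2 and 15.2 CPM in Fam210aHKO and 14.8, 13.6 and 14.4 CPM in Ctrl and did not pass (log2 fold change 0.17 ± 0.15, SE, adjusted p = 0.454). With library totals Cks2 passed as higher, at 0.62 (adjusted p = 0.0117). Cks2 shares sequence with the pseudogene Gm15452, which had a mean of 1.18 CPM in Fam210aHKO and 0.905 CPM in Ctrl.

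Per kilobase of gene length, Cks2 and Pttg1 had the highest levels of the 49 genes in both groups, at 23.1 and 12.0 CPM per kilobase in Fam210aHKO and 20.6 and 16.1 CPM per kilobase in Ctrl. In Fam210aHKO livers Cdc20 (10.2), Ccnb2 (7.02), Spc25 (6.01) and Ccnb1 (4.50) came next in mean CPM per kilobase. In Ctrl livers the next were Spc24 (2.84), Spc25 (2.46), Aurka (1.46) and Cenpa (0.664). The genes that were most abundant in Ctrl livers had the smaller fold changes. Across the 48 tested genes the Fam210aHKO level per kilobase and the log2 fold change had a Spearman correlation of -0.01, and for the Ctrl level it was -0.69. The Ctrl level is itself part of the fold change, and all genes share the same 6 libraries, so these are descriptions.

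**Figure D3:**
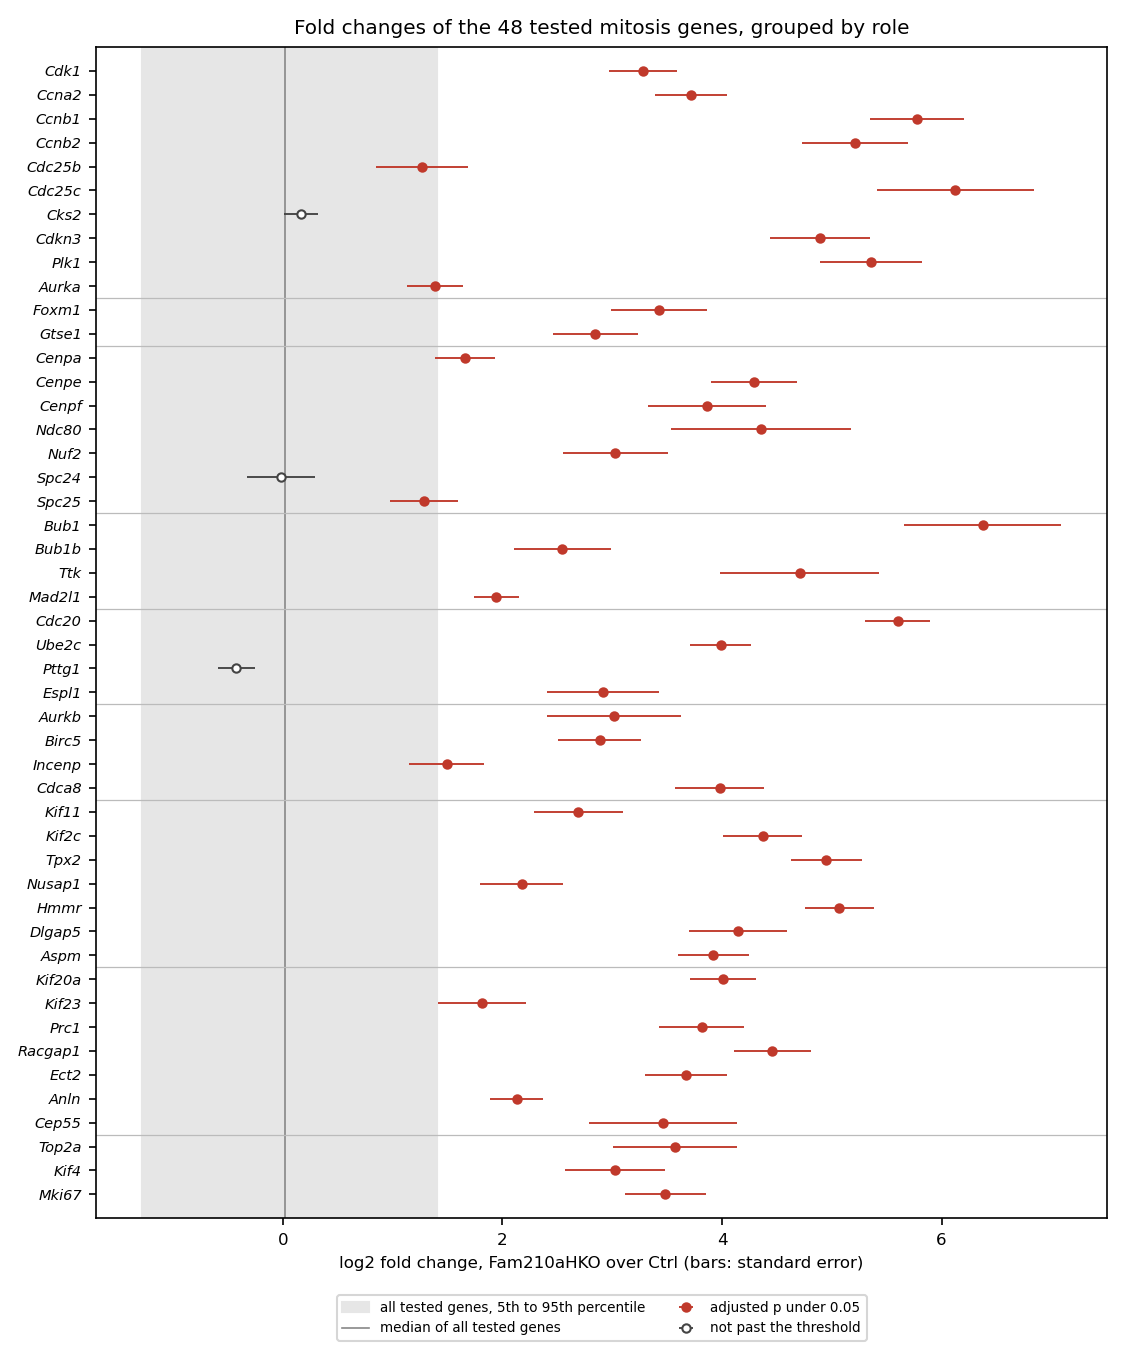
Log2 fold change of Fam210aHKO over Ctrl (x axis) for the 48 tested genes, in rows by role, with bars for the standard error and grey from the 5th to the 95th percentile of all tested genes. Cks2, Spc24 and Pttg1, drawn open, lie near 0, and the other 45 run from 1.27 (Cdc25b) upward.

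All 4 genes of the chromosomal passenger complex rose, by a median log2 fold change of 2.95. Aurkb, its kinase, had 1.67, 2.20 and 4.47 CPM in Fam210aHKO livers, against 0.261, 0.731 and 0.0672 CPM in Ctrl livers (log2 fold change 3.02 ± 0.61, SE, adjusted p = 0.00391). Birc5, which encodes survivin, had 5.17, 4.61 and 5.53 CPM in Fam210aHKO and 0.783, 1.06 and 0.269 CPM in Ctrl. Cdca8, which encodes borealin, had 3.78, 4.88 and 5.13 CPM in Fam210aHKO and 0.435, 0.0812 and 0.336 CPM in Ctrl. The scaffold Incenp had 4.69, 4.06 and 6.89 CPM in Fam210aHKO livers, against 0.957, 2.27 and 2.29 CPM in Ctrl livers, the smallest fold change of the 4 (log2 fold change 1.49 ± 0.34, SE, adjusted p = 0.00785).

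The 7 spindle motors and microtubule proteins all rose, by log2 fold changes of 2.17 (Nusap1) to 5.07 (Hmmr). Kif11, the kinesin that pushes spindle poles apart, had 4.35, 7.22 and 9.65 CPM in Fam210aHKO livers, against 0.609, 1.79 and 0.874 CPM in Ctrl livers (log2 fold change 2.69 ± 0.41, SE). Tpx2, the spindle assembly factor that activates Aurora A, had 10.1, 12.7 and 16.2 CPM in Fam210aHKO and 0.261, 0.568 and 0.403 CPM in Ctrl (log2 fold change 4.95 ± 0.32, SE, adjusted p = 4.37e-06). The difference between the changes of Tpx2 and of its kinase Aurka was not tested. Hmmr, a hyaluronan receptor that also binds spindle poles, had 8.95, 10.9 and 14.7 CPM in Fam210aHKO and 0.348, 0.325 and 0.336 CPM in Ctrl. Aspm, a protein of spindle poles, had 7.22, 5.57 and 9.78 CPM in Fam210aHKO and 0.435, 0.568 and 0.470 CPM in Ctrl. Kif2c, a kinesin that shortens microtubules, and Dlgap5, a kinetochore fibre protein, averaged 6.02 and 4.25 CPM in Fam210aHKO and 0.283 and 0.240 CPM in Ctrl.

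The 7 cytokinesis genes likewise all rose, by a median log2 fold change of 3.67. Ect2, the exchange factor that activates RhoA at the cleavage site, had 13.1, 13.2 and 21.3 CPM in Fam210aHKO livers, against 1.13, 2.03 and 0.605 CPM in Ctrl livers (log2 fold change 3.67 ± 0.37, SE, adjusted p = 5.94e-05). Racgap1, which binds ECT2 in the centralspindlin complex, had 9.90, 9.15 and 13.8 CPM in Fam210aHKO and 0.261, 0.812 and 0.403 CPM in Ctrl (log2 fold change 4.46 ± 0.35, SE). Kif23, the kinesin subunit of centralspindlin, had 2.34, 1.86 and 3.51 CPM in Fam210aHKO and 0.870, 0.974 and 0.403 CPM in Ctrl (log2 fold change 1.81 ± 0.40, SE, adjusted p = 0.00655). Anln, the scaffold anillin of the contractile ring, was also present in Ctrl livers, at 7.32, 7.71 and 9.39 CPM in Fam210aHKO and 1.48, 2.19 and 1.88 CPM in Ctrl. Prc1, which bundles the microtubules of the central spindle, had 7.08, 8.74 and 10.8 CPM in Fam210aHKO and 0.348, 1.14 and 0.403 CPM in Ctrl. Cep55, the abscission protein of the midbody, had 1.15, 1.31 and 2.02 CPM in Fam210aHKO and 0, 0.325 and 0.0672 CPM in Ctrl. In each of these 6 genes the lowest Fam210aHKO value exceeded the highest Ctrl value. Kif20a, the kinesin that brings the passenger complex to the central spindle, averaged 10.9 CPM in Fam210aHKO and 0.677 CPM in Ctrl. It overlaps Cdc23 on the opposite strand over 34.7% of its transcript, and without knowledge of the strand setting their reads cannot be told apart. Cdc23 had a mean of 13.9 CPM in Fam210aHKO and 11.2 CPM in Ctrl and did not pass (log2 fold change 0.31, adjusted p = 0.245). Opposite-strand overlaps also join Ccna2 with Exosc9 (863 bases), Kif4 with Pdzd11 (832), Cdca8 with 9930104L06Rik (2264) Cdc25b with Spef1 (334) and Cdc20 with Elovl1 (53). Prc1 and Rccd1 overlap over 21810 bases, introns included, which cover 3.24% of the Prc1 transcript. Of these partners Elovl1 was called higher (log2 fold change 0.50, adjusted p = 0.0406) and the others were not called.

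Mki67, which coats mitotic chromosomes and is the usual mark of cycling cells (chromosome 7, 135689784 to 135716361), had 29.9, 30.2 and 51.0 CPM in Fam210aHKO livers, against 1.65, 5.36 and 2.89 CPM in Ctrl livers (log2 fold change 3.49 ± 0.37, SE, adjusted p = 8.11e-05). Top2a, the topoisomerase that untangles sister chromatids, had 8.90, 13.3 and 24.4 CPM in Fam210aHKO and 0.348, 2.76 and 0.807 CPM in Ctrl (log2 fold change 3.57 ± 0.57, SE). Kif4, a chromosome-bound kinesin on chromosome X, had 2.58, 2.61 and 5.53 CPM in Fam210aHKO and 0.435, 0.244 and 0.605 CPM in Ctrl (log2 fold change 3.03 ± 0.45, SE). The groups stood apart for all 3, and the highest value of each was in Fam210aHKO replicate 3.

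That library was the highest of the Fam210aHKO libraries for 44 of the 49 genes. Replicate 1 was the highest for 4 and replicate 2 for 1. Relative to the Fam210aHKO mean, the median of the 49 genes was -0.22, -0.21 and 0.38 on the log2 scale in replicates 1, 2 and 3, while the median of the other tested genes lay between -0.012 and 0.003. Without replicate 3, 44 of the 49 were higher, and the median log2 fold change was 3.18. Among Ctrl libraries the order was less regular, with replicate 2 the highest for 29 genes, replicate 1 for 12 and replicate 3 for 8.

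**Figure D4:**
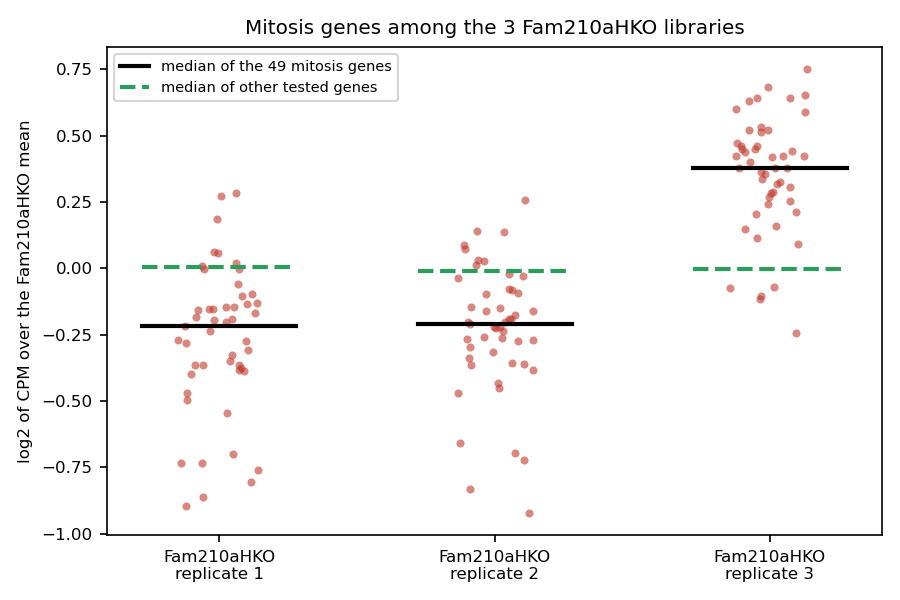
Level of each of the 49 genes in each Fam210aHKO library (x axis) as log2 of its CPM over the mean of the 3 Fam210aHKO libraries (y axis), with 1 point per gene. Solid lines mark the median of the 49 genes (-0.22, -0.21 and 0.38) and dashed lines the median of other tested genes, which stays near 0.

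Other genes of mitosis, from 131 listed by function of which 129 were in the count table, were read from the same fit. Of 125 tested, 62 were higher, 5 were lower and 58 did not pass, with a median log2 fold change of 0.80. Of all tested genes 14.0% were higher and 13.5% lower. Of the 125, 36 reached the minimum of the filter in no Ctrl library, so they entered the test through the Fam210aHKO libraries. Among the 79 that reached it in all 3 Ctrl libraries, 23 were higher, beside 12.3% of all tested genes that did so. With library totals 99 were higher and 1 lower, and of the 49 genes 46 and 0, where library totals called 42.7% of all tested genes higher and 6.33% lower. With the replicate number as a block, which called 2434 of the 13706 tested genes higher (17.8%) and 2462 lower, the kinetochore gene Cenpm (log2 fold change 0.89, adjusted p = 0.0346) and Cdc16 of the anaphase-promoting complex (0.38, adjusted p = 0.0442) were also called higher, and the phosphatase gene Cdc14b (-0.64, adjusted p = 0.00229) lower.

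Among these, spindle, motor and centrosome genes rose in 20 of 28 cases (median log2 fold change 1.98), beside 14.0% of all tested genes. Ckap2l, a protein of spindle poles, had 7.41, 6.54 and 11.6 CPM in Fam210aHKO livers, against 0.261, 0.244 and 0.202 CPM in Ctrl livers (log2 fold change 5.15 ± 0.37, SE). Its relative Ckap2 and the kinesin Kif20b changed by 5.58 ± 0.44 and 4.13 ± 0.35 (log2, SE). Other cytokinesis genes rose in 8 of 13 cases (median 2.92), among them Kif20b, Depdc1a and Shcbp1, a partner of centralspindlin. For Depdc1a and Shcbp1 the Ctrl counts were so few that no fold is given. Depdc1a had 2.44, 2.13 and 3.51 CPM in Fam210aHKO and 0.087, 0.0812 and 0.0672 CPM in Ctrl. Shcbp1 had 2.39, 2.75 and 3.38 CPM in Fam210aHKO and 0, 0 and 0.134 CPM in Ctrl.

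Other kinetochore, centromere and checkpoint genes rose in 16 of 32 cases (median log2 fold change 1.25), beside 14.0% of all tested genes. Among them were Spdl1 (3.97 ± 0.48, SE), a dynein adaptor of the kinetochore, and Oip5 (3.15 ± 0.46), which helps to load CENP-A. Oip5 overlaps Nusap1 on the opposite strand over 172 bases. Mis12, which encodes a kinetochore subunit, was lower (log2 fold change -0.52 ± 0.16, SE, adjusted p = 0.0294), but with library totals it was -0.06 and not called. Condensin and cohesin genes rose in 9 of 18 cases (median 0.39). The condensin subunits Ncapg (log2 fold change 3.35 ± 0.36, SE), Ncaph (2.84 ± 0.37) and Smc2 (1.89 ± 0.22) rose, while the cohesin subunit Smc1a was lower at -0.54 ± 0.15, a call lost with library totals (-0.08, adjusted p = 0.674).

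Kinases and phosphatases of entry and exit rose in 9 of 19 cases (median log2 fold change 0.62), beside 14.0% of all tested genes. Pbk, a mitotic kinase, had 4.26, 5.30 and 4.12 CPM in Fam210aHKO livers, against 0.087, 0.406 and 0.269 CPM in Ctrl livers, and Pkmyt1, the membrane kinase that inhibits CDK1, rose by 3.09 ± 0.47 (log2, SE). Melk, a kinase of proliferating cells, rose too, with 0.813, 1.72 and 2.11 CPM in Fam210aHKO and 0.087, 0 and 0.0672 CPM in Ctrl. Ccnf, the F-box cyclin of a G2 ubiquitin ligase, was lower, with 10.8, 10.7 and 10.9 CPM in Fam210aHKO and 19.7, 25.9 and 27.0 CPM in Ctrl (log2 fold change -1.17 ± 0.17, SE, adjusted p = 0.000592). It stayed lower with library totals (-0.71, adjusted p = 0.00705).

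The core of the anaphase-promoting complex and its inhibitors had 2 genes higher and 2 lower among 17 tested, with a median log2 fold change of 0.11. Of all tested genes 14.0% were higher and 13.5% lower, so that these shares lay near the background. Those higher were Ube2s, its chain-elongating enzyme (1.02 ± 0.17, SE), and Fzr1, its activator in late mitosis and G1 (0.60 ± 0.19). Those lower were Anapc13 (-0.75 ± 0.17) and Cdc26 (-0.51 ± 0.16). Library totals gave 10 higher and none lower, beside 42.7% and 6.33% of all tested genes, with Anapc13 at -0.31 and Cdc26 at -0.06.

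Of the regulators of these genes, the E2F factors, RB family, MuvB core and related factors, 4 of 23 tested were higher and 3 lower (median log2 fold change 0.18), beside 14.0% and 13.5% of all tested genes, so that these shares lay near the background. Library totals gave 14 higher and 0 lower, beside 42.7% and 6.33% of all tested genes. The replicate block added Tfdp1, an E2F partner (0.42, adjusted p = 0.0381), as higher and the repressor E2f8 (-0.69, adjusted p = 0.0228) as lower. Myc, a growth-promoting transcription factor, had 60.2, 41.4 and 19.2 CPM in Fam210aHKO livers, against 2.96, 2.44 and 3.90 CPM in Ctrl livers (log2 fold change 3.69 ± 0.38, SE, adjusted p = 6.2e-05). Among the Fam210aHKO libraries Myc was highest in replicate 1 and lowest in replicate 3, the library in which the mitosis genes were highest. A relation between Myc and the mitosis genes was not tested. Mybl1, which encodes the B-MYB relative A-MYB, had 2.87, 2.89 and 4.12 CPM in Fam210aHKO and 0.783, 0.487 and 0.403 CPM in Ctrl (log2 fold change 2.58 ± 0.36, SE). Trp53 was higher at 0.74 ± 0.18. Rbl2, which encodes the DREAM subunit p130, was lower at -0.93 ± 0.20 (adjusted p = 0.00551), and Nfyb, a subunit of the CCAAT-binding NF-Y, at -0.48 ± 0.15 (adjusted p = 0.0327), both calls lost with library totals (-0.48 and -0.03).

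DNA replication genes and G1 cyclins, the groups nearest to mitosis in the cell cycle, are given beside them. Of 43 replication genes tested, 18 were higher and 3 lower, with a median log2 fold change of 0.44, and with library totals 30 were higher and 2 lower. Among all tested genes 14.0% were higher and 13.5% lower, and with library totals 42.7% and 6.33%. The replicate block also called Mcm3 (log2 fold change 0.63, adjusted p = 0.0458) and Tyms (0.54, adjusted p = 0.0434) higher. Gins2, a subunit of the replicative helicase, and Lig1, the ligase that joins Okazaki fragments, rose by 2.35 ± 0.43 and 2.26 ± 0.32 (log2, SE), and Chaf1a, a histone chaperone at the fork, by 1.70 ± 0.34. Mcm10, a replication initiation factor, fell to 8.66, 6.54 and 8.25 CPM in Fam210aHKO livers, against 37.5, 20.3 and 39.9 CPM in Ctrl livers (log2 fold change -2.06 ± 0.25, SE, adjusted p = 0.000188), and Tk1, the S phase thymidine kinase, had 4.02, 3.92 and 7.81 CPM in Fam210aHKO and 17.2, 14.7 and 12.2 CPM in Ctrl. Both stayed lower with library totals (-1.62 and -1.02). Of 13 genes for G1 cyclins, their kinases and inhibitors, 5 were higher and 1 lower (median 0.29), and library totals gave 7 and 0. Ccnd1, cyclin D1, had 55.3, 45.3 and 76.3 CPM in Fam210aHKO and 12.7, 9.17 and 10.8 CPM in Ctrl (log2 fold change 2.44 ± 0.22, SE), Ccne1, cyclin E1, changed by 2.75 ± 0.37, Cdkn2c, an inhibitor of CDK4 and CDK6, by 0.82 ± 0.17, and Ccnd3 by -0.59 ± 0.18, which library totals did not call (-0.14). No test set these lists against the mitosis genes.

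**Figure D5:**
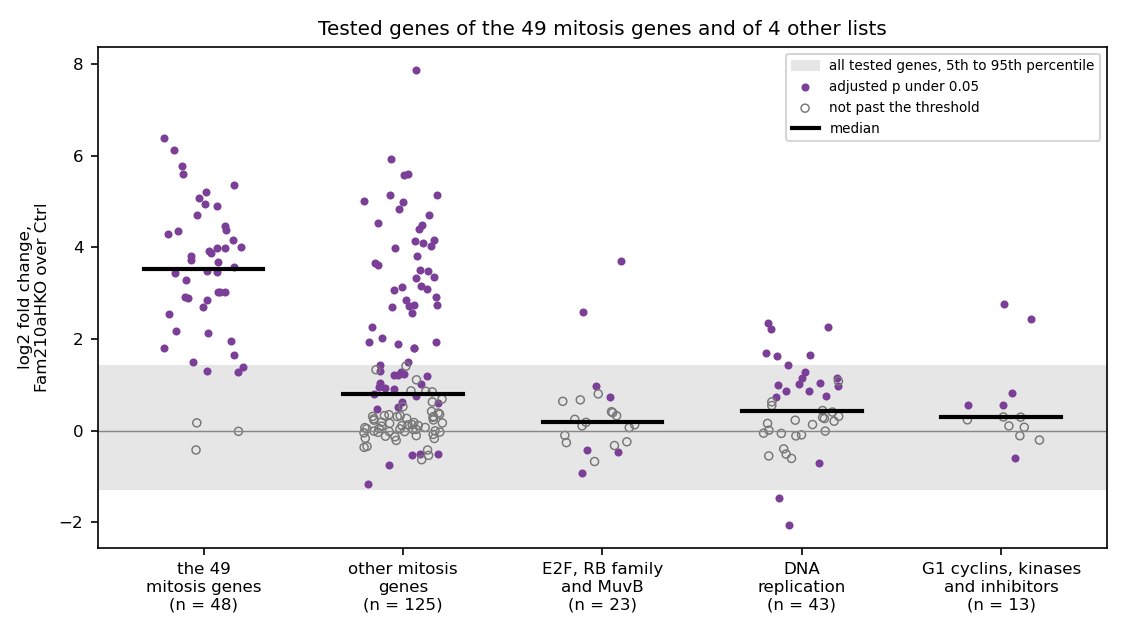
Log2 fold change of Fam210aHKO over Ctrl (y axis) of each tested gene in 5 lists (x axis), with the list's median as a bar and the 5th to 95th percentile of all tested genes in grey. Medians are 3.53 for the 49 mitosis genes, 0.80 for other mitosis genes, 0.18 for E2F, RB and MuvB factors, 0.44 for DNA replication and 0.29 for G1 genes. The highest point, Sgo2a, had 0 counts in all Ctrl libraries, so its fitted value depends on the prior count.

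Markers of cell types that a liver can hold moved as follows, and their part in the values above was not tested. Of 8 hepatocyte markers 4 were lower and none higher, among them Serpina1a (log2 fold change -1.56 ± 0.22, SE), Apoa1 (-1.61 ± 0.31) and Ttr (-1.27 ± 0.28), with a summed level of 87057 to 110405 CPM in Fam210aHKO and 150835 to 233965 CPM in Ctrl. Most of that sum was Alb, which averaged 74313 CPM in Fam210aHKO and 136499 CPM in Ctrl and did not pass (adjusted p = 0.449). Of 7 cholangiocyte markers 5 were tested and 2 rose (Spp1 by 2.24 ± 0.25, Epcam by 1.62 ± 0.41), the sum being 154 to 293 CPM in Fam210aHKO and 54.2 to 74.0 CPM in Ctrl. Spp1 made up most of it, with a mean of 200 CPM in Fam210aHKO and 42.4 CPM in Ctrl. Of 8 markers of monocytes and recruited macrophages 7 were tested and 3 rose (Gpnmb by 5.78 ± 0.46, Trem2 by 2.81 ± 0.39 and Cd9 by 0.86 ± 0.21), the sum being 98.4 to 150 CPM in Fam210aHKO and 85.0 to 87.0 CPM in Ctrl. Most of that sum was Lyz2, which did not pass (log2 fold change 0.13, adjusted p = 0.642). Marco alone among 8 Kupffer cell markers rose, by 1.26 ± 0.25 (sum 393 to 757 CPM in Fam210aHKO, 482 to 641 CPM in Ctrl). Col1a1 alone among 7 stellate cell and fibroblast markers rose, by 1.06 ± 0.31 (sum 374 to 493 CPM in Fam210aHKO, 283 to 344 CPM in Ctrl). Of all tested genes 14.0% were higher and 13.5% lower, so the shares of these Kupffer and stellate cell lists lay near the background. Most of the stellate cell sum was Dcn, which did not pass (log2 fold change 0.44, adjusted p = 0.0582). Of 7 endothelial markers 2 were lower, Stab2 (-0.77 ± 0.25) and Clec4g (-0.49 ± 0.16), neither with library totals, the sum being 192 to 321 CPM in Fam210aHKO and 292 to 395 CPM in Ctrl. With library totals 3 hepatocyte markers were lower, and 4 cholangiocyte, 5 monocyte and macrophage, 4 Kupffer cell and 4 stellate cell markers were higher. That scaling called 42.7% of all tested genes higher and 6.33% lower, and the Kupffer and stellate cell counts lay near the former share. The replicate block added calls in 4 of these lists. The hepatocyte markers Apob (-0.92, adjusted p = 0.0366) and Cps1 (-0.69, adjusted p = 0.0496) and the endothelial marker Kdr (-0.34, adjusted p = 0.0416) were then lower, and the cholangiocyte marker Krt19 (1.25, adjusted p = 0.026) and the stellate cell marker Dcn (0.46, adjusted p = 0.014) higher.

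Blood cell lineages, which divide in the fetal liver, were checked by the same kind of list. None of the T and NK, B and plasma cell or neutrophil markers passed the test (3, 5 and 3 tested of 9, 7 and 7), although the replicate block called Cd4 lower (-1.02, adjusted p = 0.0413), and their sums were 3.44 to 5.04, 7.32 to 16.1 and 4.54 to 7.43 CPM in Fam210aHKO against 4.70 to 6.72, 10.6 to 16.5 and 5.22 to 5.44 CPM in Ctrl. Of 11 erythroid precursor markers 7 were tested, none was higher and 2 were lower, beside 14.0% and 13.5% of all tested genes. Library totals called 3 of the 7 higher and 2 lower, and 1 of the 3 tested neutrophil markers higher. That scaling called 42.7% of all tested genes higher and 6.33% lower, so the counts called higher lay near the background. The 5 erythroid markers that did not pass all had positive log2 fold changes, with adjusted p-values of 0.118 to 0.351. They were Hba-a1 (1.75), Hbb-bt (1.45), Hbb-bs (1.45), Hba-a2 (1.22) and Epor (0.63). Over the 7 tested erythroid markers the median was 1.22. Rhag, a membrane protein of red cells, had 0 counts in all 6 libraries. Alas2, the heme synthesis enzyme of red cell precursors, had 7.08, 6.19 and 15.3 CPM in Fam210aHKO livers, against 47.0, 45.8 and 67.9 CPM in Ctrl livers (log2 fold change -2.48 ± 0.32, SE), and the erythroid factor Klf1 changed by -1.87 ± 0.29. The summed erythroid level was 43.2, 25.9 and 241 CPM in Fam210aHKO and 87.8 to 89.6 CPM in Ctrl, the high value being that of Fam210aHKO replicate 3. That library was also the highest Fam210aHKO library for the hepatocyte, cholangiocyte, monocyte and macrophage, Kupffer cell, stellate cell, endothelial, T and NK cell and B cell sums.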

How the data were processed

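The deposited count table holds 1 raw whole number for each Ensembl gene and library. The deposited FPKM table divides by gene length and by a library size whose origin the sources used here do not state. The tools named, per the submitters' processing notes, are STAR, featureCounts, Trimmomatic, FastQC and DESeq2, with the build mm10. The sources used here do not give the strand setting or the handling of multimapping reads.

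Samples were grouped by title. Fam210aHKO was compared with Ctrl over all genes in edgeR 4.0.16 (R 4.3.3) with group as the only factor: filterByExpr with a minimum count of 10, TMM factors, the two-sided quasi-likelihood F test, and Benjamini-Hochberg adjustment over 13706 tested genes, with calls at an adjusted p under 0.05. SE is the absolute log2 fold change over the square root of F. CPM uses TMM-scaled totals of tested genes. The common biological coefficient of variation was 0.196. Shared sequence was searched with blastn 2.17.0. Intervals, exact binomial at 95%, cover counting error only.

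The mitosis genes and lists were chosen with earlier results of these data known. From each other list the text names at most 3 called genes, by smallest p, in its commoner direction and at most 2 in the opposite one, and a few listed genes are not reported here. Same-numbered libraries of the 2 groups deviated together (correlations of 0.245, 0.182 and 0.155, with other pairs at -0.141 to -0.0262). By a rule of over 0.1 for every pair the numbers were taken to pair samples, so a fit with the replicate number as a block was also run. Calls, SEs and p-values not marked as from that block come from fits that ignore this pairing. The sources used here do not say what the numbers stand for. Scaling was also done by library totals, upper quartiles and median of ratios, filtering was dropped or set at CPM above 1 in 3 libraries, and thresholds were made stricter. DESeq2 1.42.0, limma-voom (limma 3.58.1), the legacy robust test and limma on FPKM (log2 with a pseudocount of 1 or 0.1) were run too, and each library was left out.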

Additional observations from a re-analysis of the deposited data

How the results depend on the processing

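Between 44 and 46 of the 49 mitosis genes were called under every alternative run, and the calls lost or gained were those of Cdc25b, Cks2 and Pttg1 described with those genes. Leaving out each library in turn gave 44 to 45. Over all genes, 3774 were called, 2162 at an adjusted p under 0.01, 2002 with at least a 2-fold change as well, and 6714 with library totals, of which 5846 were higher and 868 lower, and 2767 to 3699 with 1 library left out. The replicate block, which uses the pairing of same-numbered libraries, called 4896 genes, 45 mitosis genes higher and 1 lower (Pttg1), and 70 of the other mitosis genes against 67 without it, and it changed no other call among the 49. Spc24 changed sign with library totals (0.43), no filter (0.031), limma-voom (0.10) and the replicate block (0.052), and lay between -0.25 and 0.45 with 1 library left out. Pttg1 did so with library totals (0.035). The cause of these differences was not tested. Depth limits the Ctrl side: 22 of the 49 genes had 3 counts or fewer in at least 1 Ctrl library, so their fold changes are imprecise, and log2(FPKM + 1) lowered the median log2 fold change of the 48 to 1.01.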
